A study of Homo sapiens with 6 samples.

Results

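The fibroblast growth factor (FGF) genes described here are 10 symbols of the count tables, chosen by name: the receptors FGFR1, FGFR2, FGFR3, FGFR4 and FGFRL1, the ligands FGF1, FGF2, FGF5 and FGF18, and the carrier protein FGFBP1. They are 10 of 56638 gene symbols, and 7 of them had enough reads to be tested among 14897 tested genes. The data were RNA-sequencing read counts from SW480 cells, a human colorectal adenocarcinoma line, all at passages 16 to 19. Of 6 libraries, 3 came from untreated cells (control) and 3 from cells given TGF-β1 repeatedly at 10 ng/ml (TGFB1). The libraries held 13012898 to 16005222 counts in genes.

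Most FGFs are secreted proteins that bind receptor tyrosine kinases on the cell surface, many of them with heparan sulfate chains as a partner. The activated receptor phosphorylates the adaptor FRS2, which feeds the RAS-ERK cascade, and the cascade in turn induces its own brakes, such as the Sprouty proteins and DUSP6, and the ETV transcription factors. Epithelial cells are known for the FGFR2 splice form that binds FGFs made by mesenchymal cells, whereas mesenchymal cells often carry FGFR1. TGF-β1 is a cytokine known to push epithelia toward mesenchymal traits, and the comparison made here is of the FGF genes with and without it.

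Separate cultures are not named in the labels, and the p-values below therefore reflect no more than the scatter among the libraries of a group, possibly technical scatter. TGFBI, a TGF-β1 target gene, moved with the labels, from 14.6 ± 2.05 to 677 ± 16.4 CPM (mean ± SD, n = 3). CPM is the read count of a gene per 1e6 counts of the TMM-scaled library. Of 10 colorectal epithelial markers only KRT8, KRT18 and EPCAM had enough counts to be tested, and the other 7, CDX2 and VIL1 among them, stood at 0.453 CPM or less in every library. KRT18 fell from 183 to 125 CPM and EPCAM from 6.94 to 4.06 CPM, and KRT8 averaged 1711 and 1678 CPM. The immune marker PTPRC and the endothelial markers PECAM1 and KDR had 0 counts throughout. The 5 endothelial markers summed to 2.72 to 3.41 CPM in control and 0.755 to 1.02 CPM in TGFB1 libraries, and the 5 immune markers to 1.98 to 2.15 and 1.66 to 3.12 CPM. Their part in the results below was not tested.

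The RefSeq sequences before the start sites of the 4 tested members with the largest changes that the promoter table lists are shown to set their base composition beside the expression changes. RefSeq's table (GRCh38.p14) matched 9 of the 10 members. FGFR1 has no entry. Each line gives the 250 bases before the first listed start, 5′ to 3′ on the strand of the gene, and capitals mark matches to any of 3 searched motifs on either strand: CAGACA (a SMAD-type element), TGACTCA (AP-1) and CACCTG (an E-box).
FGF2, chr4:122826581-122826830, plus strand: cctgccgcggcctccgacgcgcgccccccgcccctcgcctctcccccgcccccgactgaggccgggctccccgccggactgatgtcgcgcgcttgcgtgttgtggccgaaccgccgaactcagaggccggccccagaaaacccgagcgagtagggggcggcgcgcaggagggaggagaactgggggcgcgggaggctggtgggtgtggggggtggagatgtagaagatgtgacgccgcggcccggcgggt
FGFR3, chr4:1793043-1793292, plus strand: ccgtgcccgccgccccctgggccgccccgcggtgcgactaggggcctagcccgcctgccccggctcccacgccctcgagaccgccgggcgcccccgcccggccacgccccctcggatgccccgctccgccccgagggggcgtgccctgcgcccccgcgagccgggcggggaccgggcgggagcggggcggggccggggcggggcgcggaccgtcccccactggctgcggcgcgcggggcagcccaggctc
FGFR2, chr10:121598445-121598694, minus strand: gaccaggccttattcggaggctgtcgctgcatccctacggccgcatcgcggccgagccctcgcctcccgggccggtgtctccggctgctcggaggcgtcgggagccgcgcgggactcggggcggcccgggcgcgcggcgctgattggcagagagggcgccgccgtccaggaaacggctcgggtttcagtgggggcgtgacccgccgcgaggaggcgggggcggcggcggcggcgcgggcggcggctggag
FGFBP1, chr4:15938741-15938990, minus strand: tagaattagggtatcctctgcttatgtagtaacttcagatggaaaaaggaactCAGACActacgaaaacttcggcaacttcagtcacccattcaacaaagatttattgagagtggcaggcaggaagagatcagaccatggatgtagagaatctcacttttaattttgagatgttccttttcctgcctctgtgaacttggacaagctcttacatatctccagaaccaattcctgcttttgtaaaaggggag

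The windows differed in composition. Those of FGF2, FGFR3 and FGFR2 held 75.2%, 86.8% and 78.4% G and C, with 33, 40 and 42 CG dinucleotides, against medians of 58% and 11 over the 27305 first-listed windows of this length. The FGFBP1 window held 40.8% G and C and 2 CG dinucleotides. It held 1 match to CAGACA, 197 bases before the start, a motif found in 13.6% of all windows. The windows of FGF2, FGFR3 and FGFR2 held none of the 3 motifs. The window of FGF1, which was not tested and is not shown, held 1 E-box match 57 bases before the start. Among tested members not shown, the FGFRL1 window held 1 CAGACA match on the reverse strand, 167 bases before the start. The FGFR4 window held 1 E-box match, also on the reverse strand, 220 bases before the start. AP-1 and E-box letters were found in 4.16% and 17.5% of all windows. FGFR2 has 5 listed starts, of which only the first is shown, and a match is a description of letters, not a binding site.

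FGF2 and FGFR1 rose with TGF-β1, and so did FGFRL1, a receptor without a kinase domain. FGFR2, FGFR3 and FGFBP1 fell, FGFR2 by the most, and FGFR4 fell slightly. Thus 3 members rose and 4 fell at an adjusted p under 0.05, and 3 had too few reads to be tested (edgeR quasi-likelihood test, p-values adjusted by Benjamini-Hochberg across the 14897 genes). The same rule called 47.3% of all tested genes, 23.4% higher and 23.9% lower, so a call alone sets no member apart. Whether the share of called members differs from that background was not tested. The groups did not overlap for 8 of the 10 listed members, the untested FGF1 included. Over tested genes only, the share without overlap was 54.2%. In size, 0.913% of tested genes had a larger absolute log2 fold change than FGFR2, 1.4% than FGFBP1, 3.79% than FGF2 and 6.01% than FGFR3. The median absolute log2 fold change of all called genes was 0.45. In a bulk sample, fewer cells of a type and less RNA per cell cannot be told apart.

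**Figure D1:**
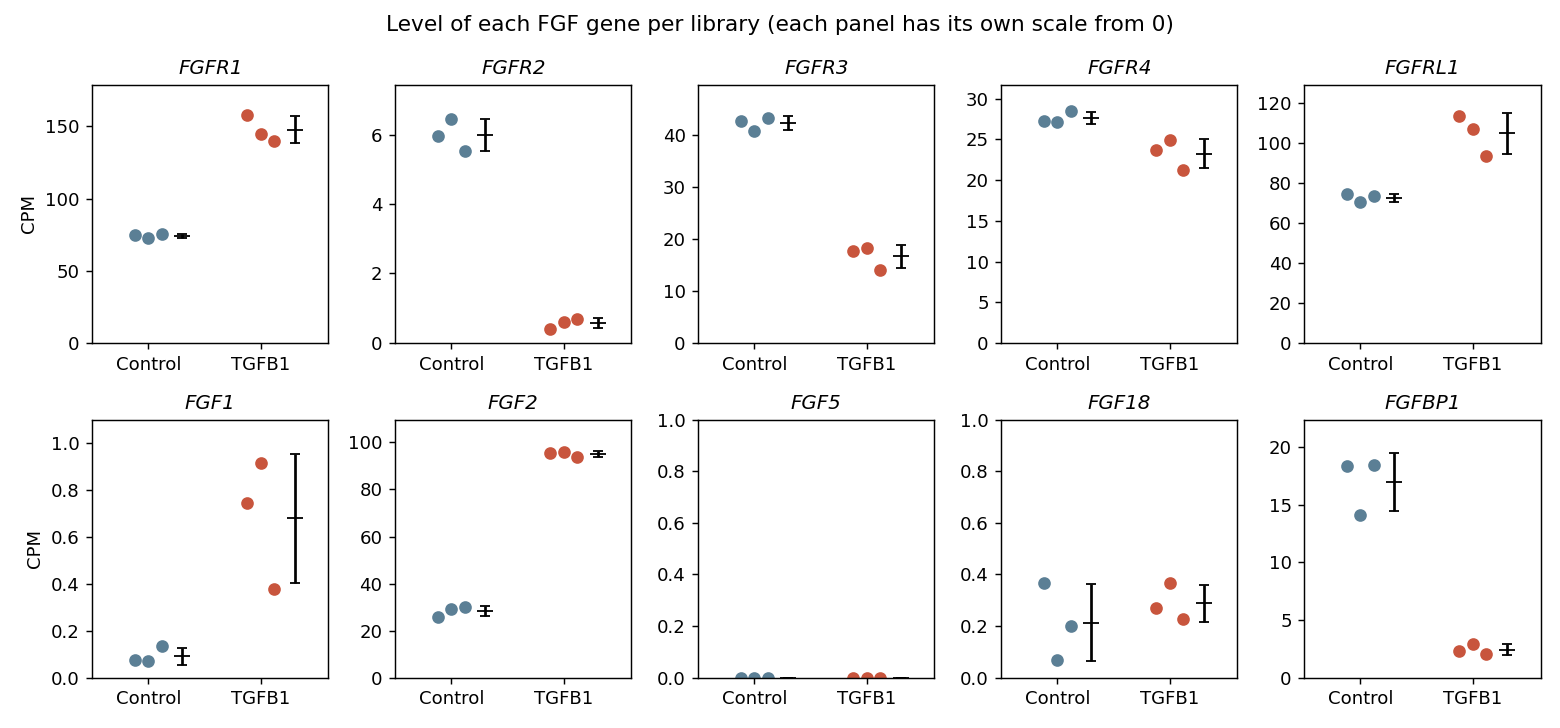
Level of each FGF gene in CPM (vertical axis, from 0, own scale per panel) in the 3 control and 3 TGFB1 libraries (points), with mean and SD (black). The groups lie apart for FGFR1, FGFR2, FGFR3, FGFR4, FGFRL1, FGF1, FGF2 and FGFBP1, FGF18 overlaps, and FGF5 is at 0 in all 6 libraries.

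Among the ligands, FGF2 (basic FGF, a broadly active ligand that binds several FGF receptors) was the one with substantial reads. Control libraries 1, 2 and 3 stood at 25.9, 29.2 and 30.1 CPM and TGFB1 libraries 1, 2 and 3 at 95.6, 95.8 and 93.8 CPM. The TGFB1 libraries were thus nearly equal and all above the highest control library. FGF2 rose 3.34-fold (log2 fold change 1.74 ± 0.065 SE, edgeR adjusted p = 7.34e-19), the lowest p of any member. Exons of NUDT6, a gene on the opposite strand, overlap those of FGF2. The strand setting of the counting is unknown. Whether reads of the shared stretch were counted or set aside as ambiguous is therefore not known. NUDT6 had 23, 34 and 39 counts in control and 66, 75 and 59 in TGFB1 libraries, and rose 2.02-fold (edgeR adjusted p = 0.000107). FGF2 held 1224 and 4218 counts in the same libraries.

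The other 3 ligands were near or at the floor. FGF1 (acidic FGF, which can bind all the FGF receptors) had 1, 1 and 2 counts in control and 11, 15 and 5 in TGFB1 libraries. The groups did not overlap, and the ratio after scaling was 7.52 with an exact 95% interval of 2.66 to 29.3, counting error only. FGF1 missed the count filter and was not tested with the other members. Without a filter it passed (edgeR adjusted p = 0.000524), as it did in DESeq2 (DESeq2 adjusted p = 0.0158). FGF18, a ligand of developing bone and lung, had 5, 1 and 3 counts in control and 4, 6 and 3 in TGFB1 libraries. Its ratio of 1.4 had an interval of 0.554 to 3.71, so no difference was detectable at this depth. FGF5, a regulator of hair growth, had 0 counts in all 6 libraries, which allows up to 0.0698 CPM in the control group and 0.0677 CPM in the TGFB1 group, from 3 counts over each group.

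FGFBP1 encodes a secreted carrier that releases FGF1 and FGF2 from heparan sulfate in the matrix. It stood at 18.4, 14.1 and 18.4 CPM in control libraries 1, 2 and 3 and at 2.31, 2.93 and 2.04 CPM in TGFB1 libraries. All TGFB1 libraries were far below the lowest control library, control 2. FGFBP1 fell 6.89-fold (log2 fold change −2.78 ± 0.155 SE, edgeR adjusted p = 6.09e-15). The ligand and its carrier therefore moved in opposite directions. FGF2 stood at 1.41 to 2.07 times the CPM of FGFBP1 within each control library and at 32.7 to 46 times within each TGFB1 library, a ratio not corrected for gene length.

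FGFR1, a receptor kinase that binds FGF2, had the most reads of the receptors in both groups. In control FGFRL1, at 70.4 to 74.2 CPM, overlapped with it. For FGFR1, control libraries 1, 2 and 3 stood at 75.04, 72.5 and 75.2 CPM and TGFB1 libraries 1, 2 and 3 at 158, 145 and 140 CPM. The control libraries differed little, and each TGFB1 library was well above them. FGFR1 rose 1.99-fold (log2 fold change 0.99 ± 0.056 SE, edgeR adjusted p = 7.33e-15). LETM2, whose exons overlap those of FGFR1 on the opposite strand, had between 19 and 33 counts per control library and between 26 and 42 per TGFB1 library, with an edgeR adjusted p of 0.173.

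FGFR2, the receptor kinase whose epithelial splice form binds FGF7 and FGF10, stood at 5.95, 6.45 and 5.54 CPM in control libraries 1, 2 and 3. In TGFB1 libraries 1, 2 and 3 it stood at 0.408, 0.611 and 0.679 CPM. That is 257 counts against 25 over 3 libraries each, with no overlap. FGFR2 fell 10.5-fold (log2 fold change −3.39 ± 0.247 SE, edgeR adjusted p = 2.65e-12). FGFR2 reached the filter count in all 3 control libraries and in 1 TGFB1 library, so it was tested because of its control level. The ratio of control to TGFB1 counts after scaling was 10.6 with an exact 95% interval of 7.02 to 16.7, counting error only. Counts per gene do not separate its splice forms.

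FGFR3, a receptor kinase that restrains bone growth and is also found in epithelia, stood at 42.8, 40.9 and 43.4 CPM in control libraries 1, 2 and 3. TGFB1 libraries 1, 2 and 3 stood at 17.7, 18.3 and 14.1 CPM, library 3 being the lowest. FGFR3 fell 2.52-fold (log2 fold change −1.34 ± 0.084 SE, edgeR adjusted p = 8.97e-14). FGFR4, the kinase that serves as the FGF19 receptor in liver, changed least. Its control libraries stood at 27.2, 27.1 and 28.5 CPM and its TGFB1 libraries at 23.7, 24.9 and 21.3 CPM. The groups did not overlap, and FGFR4 fell 1.18-fold (log2 fold change −0.24 ± 0.079 SE, edgeR adjusted p = 0.0129). FGFR4 missed the threshold when control 3 or TGFB1 3 was left out (0.0537 and 0.0641 as edgeR adjusted p), when only total counts set the scale (0.0573) and under DESeq2 (0.0696 as adjusted p).

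FGFRL1, which binds FGFs and heparan sulfate but has no kinase domain, stood at 74.2, 70.4 and 73.4 CPM in control libraries 1, 2 and 3. TGFB1 libraries 1, 2 and 3 stood at 114, 107 and 93.4 CPM. The TGFB1 libraries were all higher and also more spread than the controls. FGFRL1 rose 1.44-fold (log2 fold change 0.53 ± 0.063 SE, edgeR adjusted p = 5.12e-08).

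Because longer transcripts collect more reads, levels were compared between genes as CPM per kilobase of the longest annotated transcript, a description without a test. In control cells the order was FGFRL1 at 19.96 ± 0.551, FGFBP1 at 12.48 ± 1.83, FGFR1 at 11.9 ± 0.248, FGFR3 at 9.55 ± 0.298, FGFR4 at 8.84 ± 0.234, FGF2 at 4.19 ± 0.324 and FGFR2 at 1.37 ± 0.104 CPM per kilobase (SD, n = 3). FGFBP1 and FGFR1 overlapped and could not be ordered. FGF18 and FGF1 followed at 0.107 and 0.0227 CPM per kilobase. With TGF-β1 the order was FGFRL1 at 28.8 ± 2.83, FGFR1 at 23.7 ± 1.52, FGF2 at 14.0 ± 0.163, FGFR4 at 7.45 ± 0.585, FGFR3 at 3.76 ± 0.506 and FGFBP1 at 1.79 ± 0.338 CPM per kilobase. FGF2 thus moved from the sixth to the third place, and FGFBP1 went from a level shared with FGFR1 to one below FGFR3. FGF1, FGF18 and FGFR2, at 0.168, 0.145 and 0.130 CPM per kilobase, overlapped with each other and lay below FGFBP1.

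**Figure D2:**
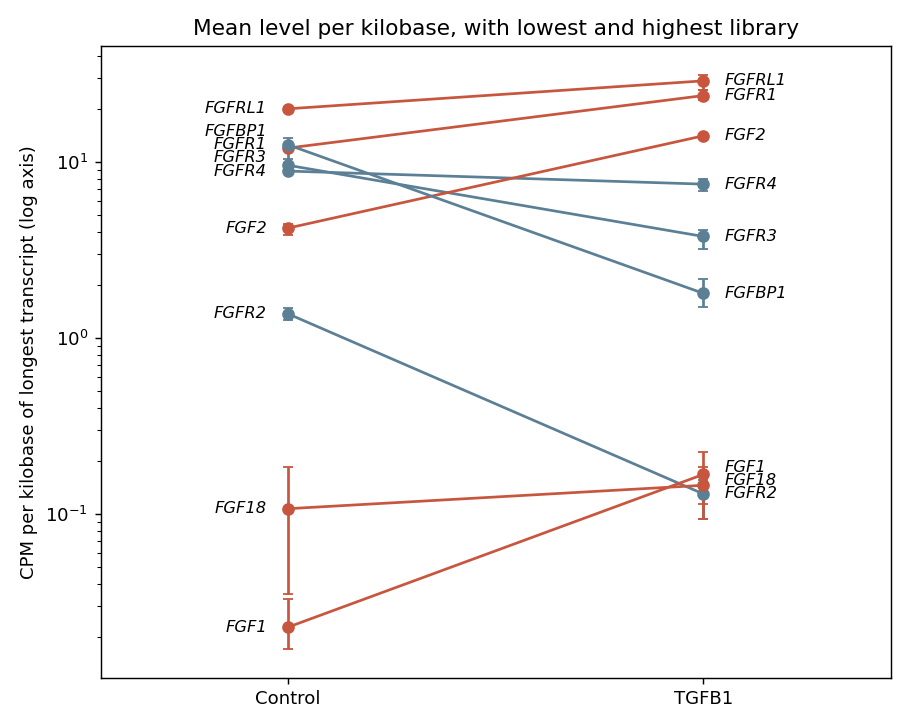
Mean level per kilobase (vertical log axis, CPM per kilobase of longest transcript) in control and TGFB1 libraries, with bars from the lowest to the highest of 3 libraries. Red lines join means that were higher with TGF-β1 and blue lines means that were lower. FGF5, at 0, is not drawn, and the lines of FGF2 and FGFBP1 cross.

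The makeup of the 4 kinase receptors shifted toward FGFR1. Their summed level was 31.7 ± 0.62 CPM per kilobase in control (lowest 31.0, highest 32.3) and 35.1 ± 2.23 in TGFB1 libraries (lowest 32.7, highest 37.1), and no test was made of it. FGFR1 made up 38.0%, 37.6% and 37.5% of that sum in control libraries 1, 2 and 3 and 68.6%, 65.5% and 68.9% in TGFB1 libraries. FGFR3 went from 30.1% ± 0.373 to 10.7% ± 0.941, FGFR4 from 27.9% ± 0.417 to 21.3% ± 1.08 and FGFR2 from 4.32% ± 0.415 to 0.374% ± 0.113 (SD, n = 3). No share overlapped between groups, and the levels of 54.2% of all tested genes did not overlap either. The shares are parts of the same sum, so a rise in FGFR1 by itself lowers the other shares. The shares depend on the transcript length used: without it FGFR1 made up 49.4% and 78.5%.

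**Figure D3:**
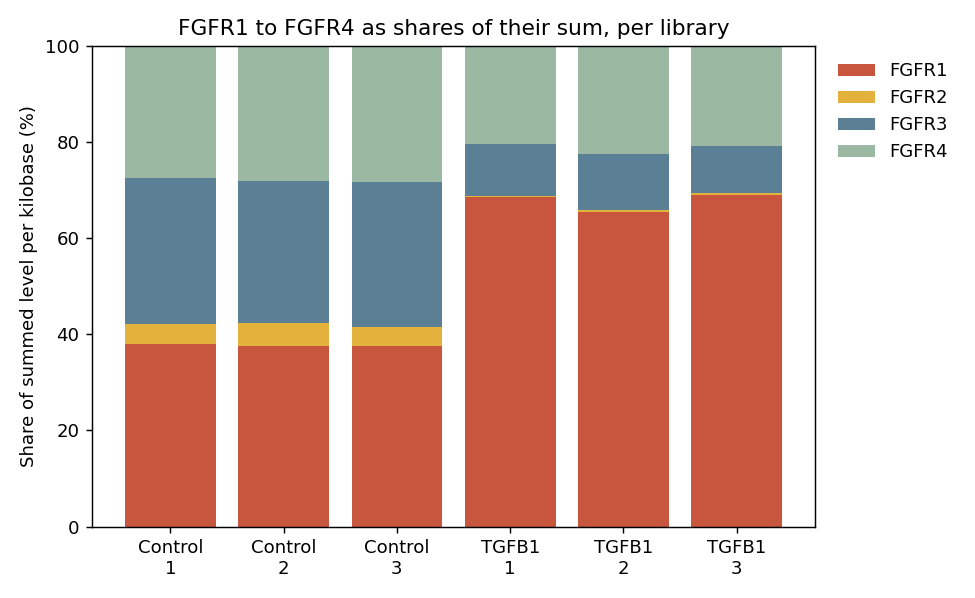
Share (percent, vertical axis) of each of FGFR1 to FGFR4 in their summed level per kilobase, as 1 stacked bar per library. FGFR1 takes 37.5% to 38.0% of the control bars and 65.5% to 68.9% of the TGFB1 bars, and the FGFR2 band nearly vanishes.

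The remaining FGF ligands were scarce. Of 14 other secreted FGF genes 8 had 0 counts in all libraries and 1, FGF22, was tested. FGF22, a ligand known from synapse formation, rose from 0.925 ± 0.260 to 3.24 ± 0.313 CPM (edgeR adjusted p = 1.61e-06). All 3 TGFB1 libraries and 2 of the 3 control libraries reached the filter count. FGF7 and FGF10, which are among the ligands of epithelial FGFR2, had 7 and 0 counts over the control libraries and 3 and 0 over the TGFB1 libraries. The 4 intracellular FGF homologous factors are not secreted and regulate sodium channels. FGF12 rose from 6.63 ± 0.0949 to 15.3 ± 1.42 CPM (edgeR adjusted p = 7.89e-10). FGF13 rose from 0.347 ± 0.199 to 0.861 ± 0.0588 CPM (edgeR adjusted p = 0.0200), with the filter count reached in the 3 TGFB1 libraries and in 0 control libraries. FGF13 missed the threshold when control 2 or TGFB1 1 was dropped (0.137 and 0.0557 as edgeR adjusted p) and under DESeq2 (0.143 as adjusted p). FGF11, at 0.587 CPM in control and 0.962 CPM with TGF-β1, had an edgeR adjusted p of 0.132.

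Of 10 further binding proteins and co-receptors 5 were tested, 3 fell and 0 rose, with a median log2 fold change of −0.80 against 0.00 over all tested genes, of which 23.9% fell. The count lower was 2 in the alternatives that ended the call of KLB. NRP1, a co-receptor for several growth factors, fell from 79.5 ± 3.49 to 38.5 ± 0.380 CPM (edgeR adjusted p = 2.43e-14). FLRT3, a membrane protein that binds FGF receptors, fell by 0.80 on the log2 scale (edgeR adjusted p = 0.00198). KLB, β-klotho, the partner of FGFR4 for FGF19, fell from 1.70 ± 0.0336 to 0.838 ± 0.452 CPM (edgeR adjusted p = 0.00959). KLB reached the filter count in 3 control libraries and 1 TGFB1 library. It missed the threshold when TGFB1 1 or TGFB1 2 was dropped (0.0695 and 0.0581 as edgeR adjusted p) and under DESeq2 (0.0828 as adjusted p). KAL1, which encodes the matrix protein anosmin, averaged 22.2 ± 1.39 CPM in control and 19.8 ± 1.03 CPM with TGF-β1, with an edgeR adjusted p of 0.124.

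Genes of heparan sulfate, a partner of many FGFs in receptor binding, moved both ways. Of 25 core proteins and enzymes 20 were tested, 8 rose, 6 fell and 6 did not pass. Of all tested genes 23.4% rose and 23.9% fell. The median log2 fold change of the list was 0.01 against 0.00 over all tested genes. HS6ST1, which adds 6-O-sulfate, fell from 52.3 ± 0.665 to 19.9 ± 1.115 CPM, with the lowest p of the list (9.54e-16 as edgeR adjusted p). GLCE, the epimerase of the chain, fell by 1.23 and HPSE, the heparanase that cuts it, fell by 1.52 on the log2 scale. SULF2, an extracellular enzyme that removes 6-O-sulfate, rose from 2.46 ± 0.339 to 8.52 ± 1.12 CPM (edgeR adjusted p = 6.81e-10). Their relatives did not pass. HS6ST2 averaged 74.6 ± 2.16 CPM in control and 69.0 ± 0.602 CPM with TGF-β1 (edgeR adjusted p = 0.111). SULF1 averaged 0.791 ± 0.160 and 0.745 ± 0.117 CPM (edgeR adjusted p = 0.872). Sulfation itself was not measured. Of the 4 syndecan core proteins 3 rose, SDC3 by 0.86, SDC4 by 0.73 and SDC1 by 0.38 on the log2 scale, and SDC2 fell by 0.92. SDC1, SDC3, HS6ST2 and SULF1 were named after their values were seen.

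The adaptors that carry the receptor signal changed little. Of 13 genes all were tested, 3 rose, 1 fell and 9 did not pass, with a median log2 fold change of 0.00. Over all tested genes 23.4% rose and 23.9% fell. PLCG1, a phospholipase that docks on the receptors, rose from 113 ± 4.30 to 135 ± 8.42 CPM (edgeR adjusted p = 0.000288). FRS2, the main FGF receptor adaptor, rose from 26.5 ± 4.48 to 33.0 ± 0.9898 CPM (edgeR adjusted p = 0.00526). Dropping control 2, the lowest FRS2 library, gave 0.0785 as edgeR adjusted p. SOS2, an activator of RAS, had a log2 fold change of 0.32 (edgeR adjusted p = 0.0180). SOS2 missed the threshold when control 3 or TGFB1 1 was dropped (0.189 and 0.0905 as edgeR adjusted p) and under DESeq2 (0.0944 as adjusted p). GRB2, which links FRS2 to SOS, fell from 103 ± 2.48 to 91.2 ± 2.31 CPM (edgeR adjusted p = 0.00886), but missed the threshold when only total counts set the scale (0.0786 as edgeR adjusted p).

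Feedback genes and targets of the FGF-ERK cascade were mostly higher. Of 19 listed genes 18 were tested, 12 rose, 2 fell and 4 did not pass. Of all tested genes 23.4% rose and 23.9% fell. The median log2 fold change of the list was 0.73 against 0.00 over all tested genes. Of the 12 rises, SPRY4, IL17RD and DUSP6 reached the filter count in every library of the TGFB1 group only. Over the alternatives the count ran from 10 to 12 higher and from 1 to 3 lower, with 10 and 1 in DESeq2. ETV4, an ETS factor and known ERK output, rose from 28.99 ± 1.102 to 54.5 ± 2.85 CPM (edgeR adjusted p = 5.29e-12). Its relative ETV5 rose from 4.25 ± 0.335 to 10.8 ± 0.778 CPM (edgeR adjusted p = 2.34e-09).

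SPRY2, a Sprouty inhibitor of receptor signalling, stood at 2.50, 3.26 and 1.87 CPM in control and at 8.29, 6.05 and 8.91 CPM in TGFB1 libraries, a rise of 1.597 on the log2 scale (edgeR adjusted p = 7.66e-08). SPRED2, a relative of the Sprouty proteins, rose by 0.80 and CCND1, which encodes cyclin D1, by 0.61 on the log2 scale. SPRY4 went from 11 to 52 counts over 3 libraries, and IL17RD, an inhibitor of FGF receptors, from 21 to 66. DUSP6, the phosphatase of ERK, went from 19 to 47 counts (edgeR adjusted p = 0.0158). DUSP6 missed the threshold when control 1 or TGFB1 2 was dropped (0.111 and 0.0816 as edgeR adjusted p) and under DESeq2 (0.115 as adjusted p). The 2 genes that fell, named after their values were seen, were FOS, from 17.0 ± 0.284 to 9.04 ± 0.741 CPM, and DUSP5, from 14.6 ± 1.11 to 11.9 ± 0.680 CPM (edgeR adjusted p = 2.46e-08 and 0.0195). DUSP5 missed the threshold when control 2, control 3 or TGFB1 2 was dropped (0.0569, 0.0769 and 0.0890 as edgeR adjusted p), when only total counts set the scale (0.0578) and under DESeq2 (0.112 as adjusted p). Receptors other than those of FGF also feed ERK, and the counts do not show which were active.

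**Figure D4:**
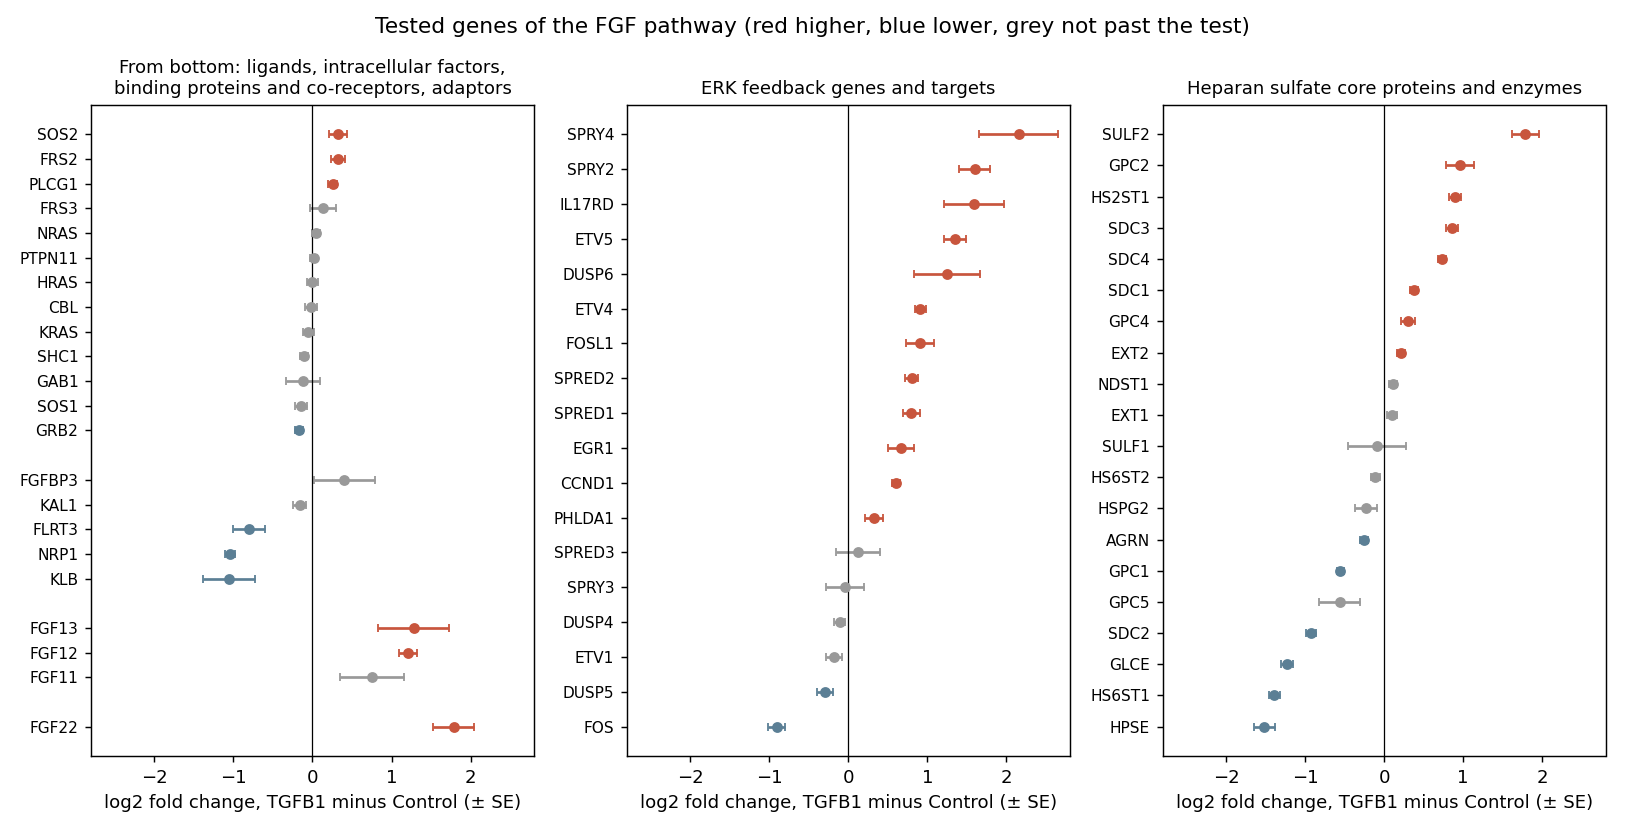
Log2 fold change, TGFB1 minus control, with SE (horizontal axis) for every tested gene of the other FGF ligand, intracellular factor, binding protein, adaptor, ERK feedback and heparan sulfate lists. Red marks genes past the test and higher, blue past the test and lower, grey not past it. In the middle panel 12 of 18 genes are red, and in the right panel 8 are red and 6 blue.

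Splice forms of FGFR2 cannot be read from these counts, but the genes known to choose them can. ESRP1, an epithelial splicing regulator, had 0 counts in all libraries. Its paralog ESRP2 fell from 65.4 ± 1.21 to 42.1 ± 2.86 CPM (edgeR adjusted p = 2.29e-09). RBFOX2, a splicing factor that acts on the same FGFR2 exons, rose from 89.5 ± 6.89 to 118 ± 8.52 CPM (edgeR adjusted p = 3.66e-06). PTBP1 and HNRNPM, 2 more splicing factors, averaged 607 and 448 CPM in control and 576 and 459 CPM with TGF-β1, with edgeR adjusted p values of 0.162 and 0.557.

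The fibroblast markers that could be tested moved in the same direction as FGF2 and FGFR1. Of 10 listed markers 5 were tested and 5 rose, while 23.4% of all tested genes rose. Of these 5, FAP and THY1 reached the filter count in every library of the TGFB1 group only. The groups overlapped for THY1, which missed the threshold under DESeq2 (0.142 as adjusted p) and when control 1, control 3, TGFB1 1 or TGFB1 2 was dropped (0.0579, 0.150, 0.0871 and 0.0660 as edgeR adjusted p). The summed level of the 10 markers was 91.7 to 95.4 CPM in control and 121 to 137 CPM in TGFB1 libraries, most of it COL1A1. The 5 untested markers COL1A2, COL3A1, PDGFRA, LUM and ACTA2 stood at no more than 0.0755, 0.122, 0.0680, 0.367 and 0.763 CPM in any library. LUM had 9 counts in control and 3 with TGF-β1, and ACTA2 had 23 and 25. The part of these markers in the FGF results was not tested.

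Across the 6 libraries, the genes whose log2 CPM followed that of FGF2 most closely among 14896 others were CAPG, an actin-capping protein, DVL1, a WNT signal transducer, and TSPAN14, a tetraspanin, with a Pearson r of 0.99991, 0.9995 and 0.99946. These 6 points share the step between the groups, and 394 genes had an r over 0.99.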

How the data were processed

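Total RNA of SW480 cells was sequenced in 6 libraries, 3 control and 3 TGFB1. The authors deposited a table of raw read counts per gene symbol for each library. The tools TopHat2 (2.0.11), TopHat and HTSeq are named per the submitters' processing notes, as are 2 builds, GRCh37 and hg19, without saying what each did. For the annotation and the strand setting no source used here gives a name. Rows that name no gene were removed before any scaling. They held 5.44% to 5.98% of counts as featureless reads, 9.01% to 9.43% as ambiguous and 12.01% to 12.49% as not uniquely aligned. Reads shared by close copies, and reads set aside as ambiguous between genes, are thus missing. Whether reads shared by genes on opposite strands are among them depends on the unknown strand setting.

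Low genes were dropped by filterByExpr in edgeR (at least 10 counts, total of at least 15). The rest were scaled by TMM and tested with edgeR 4.0.16 (robust glmQLFit and glmQLFTest, group as the only term, Benjamini-Hochberg adjustment over 14897 genes, threshold 0.05), in R 4.3.3. The test was tried on simulated data. Fold changes are on the log2 scale, TGFB1 minus control, and each SE is the absolute value divided by the root of F. Exact intervals cover counting error only. Lengths and overlaps are from GENCODE 29, of another build than the counts, and promoter windows from RefSeq. No 2 libraries were copies: chi-square divided by its degrees of freedom ran from 1.82 to 4.675 in pairs of the same group. Alternatives were DESeq2 1.42.0, other scalings and filters, a replicate block and leaving out each library. The members, the lists and the tests were chosen with earlier results of these data known. Named beside the members were up to 4 tested genes of each list with the lowest p, called genes with at least a 2-fold change, and the 3 genes most like the member with the lowest p.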

Additional observations from a re-analysis of the deposited data

How the results depend on the processing

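FGF2, FGFR1, FGFRL1, FGFR2, FGFR3 and FGFBP1 kept their direction and their call under all 12 alternatives, and FGFR4 kept its direction in 12 and its call in 8. The count of members higher was 3 or 4, the fourth being FGF1 in the alternatives that tested it. FGF1 reached the filter count in 2 TGFB1 libraries and in 0 control libraries. The count of members lower was 3 or 4. The log2 fold change ranged from 1.68 to 1.80 for FGF2, from 0.94 to 1.048 for FGFR1, from −3.52 to −3.20 for FGFR2 and from −2.95 to −2.68 for FGFBP1. Genes called numbered 7044, 5747 in DESeq2 and 6115 to 6816 when 1 library was left out. Scaling by library size alone made 59.4% of calls higher. Without length, the receptor shares moved to 49.4% and 78.5% for FGFR1, 28.2% and 8.85% for FGFR3, and 18.4% and 12.4% for FGFR4, in control and TGFB1 libraries. Control and TGFB1 libraries share replicate numbers, but deviations of same-numbered libraries correlated at 0.0306, −0.107 and −0.0481, so the numbers were not taken as pairs. With the number as a replicate block 6775 genes were called, with 3 members higher and 4 lower. At this depth no difference in FGF18 or FGF5 was detectable.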
